A study of Mus musculus with 2 samples.

Results

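The 10 genes described here are receptors, ligands and targets of the Notch pathway, taken by gene symbol from the 32285 genes counted in mouse embryonic brain. They are the receptors Notch1, Notch2 and Notch3, the ligands Dll1, Dll3, Jag1 and Jag2, and the target genes Hes1, Hes5 and Nrarp. RNA of single cells was captured on a 10x Genomics platform in 1 NTD library and 1 control library. NTD stands for neural tube defect. For the NTD group, pregnant mice on a low folate diet received MTX (methotrexate, a drug that blocks folate metabolism) at 1.5 mg/kg into the abdomen at gestational day 7.5. The control group received normal saline, and the sources used here do not state the diet of its dams. Neural tube closure was scored at embryonic day 9.5 to 10.5, and the NTD embryos were smaller and delayed, with malformed hindbrains and spina bifida. The sources used here do not state how many embryos went into a library, their exact age or their strain. With 1 library per group, differences between the groups have no replicate check and no test, and all intervals (95%) cover counting error only.

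Notch receptors sit in the cell membrane and are cut when a ligand on a neighbouring cell binds them. The freed inner part enters the nucleus, joins the DNA-binding protein RBPJ and switches on target genes such as the Hes repressors. In the embryonic neural tube this keeps progenitors dividing, while neighbouring cells that make the ligand Dll1 go on to become neurons. In blood vessels the same pathway helps to set apart arteries and sprouting cells.

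After removal of likely doublets, 15813 control cells and 16151 NTD cells were kept, with a median of 2167 and 2437 UMIs per cell. A UMI is a molecular tag that counts 1 captured RNA molecule. Cells were clustered without any Notch gene, and clusters were named X-like from markers. There were 3071 control and 5857 NTD neural progenitor-like cells. Neuroblast-like cells, which are new neurons and their direct precursors, numbered 738 and 1125, neuron-like cells 1246 and 1736, endothelial-like cells 492 and 292, and mesenchyme-like cells 3436 and 2888. Of the listed markers, the progenitor-like clusters held 4 to 6, the neuroblast-like and the endothelial-like cluster 10, the neuron-like clusters 8 to 10, and the mesenchyme-like clusters 6 to 8. The level of a gene is given as CPM, its summed UMIs in a class scaled to the same class total, and a log2 ratio is that of NTD over control CPM.

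The libraries differed in the body regions they held. A UMI of a Hox gene, a mark of hindbrain and trunk, was found in 2102 of 3071 control and 743 of 5857 NTD progenitor-like cells. Clusters led by limb and trunk genes (Tbx5, Tbx4 and Hoxa10 in one, Wt1 and Gata4 in another) held 40.5% and 38.1% of the control mesenchyme-like cells and 0.312% and 2.74% of the NTD ones. Control cells also included 821 skeletal muscle-like and 139 liver or yolk sac-like cells, against 16 and 5 NTD ones, although both libraries are labelled brain. Values within Hox subsets and clusters are therefore given beside the members. Body region and group cannot be told apart where a class is taken whole.

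Free RNA in droplets can give UMIs in cells that do not express a gene. Each level is therefore set beside that of the erythroid-like cells (325 control cells with a median of 1757 UMIs, 160 NTD cells with 2101), a cluster with all 12 erythroid markers. It also held 9 of 10 macrophage markers. No Notch member is a known erythroid marker, and Hes5 was the member most often found there. Whether free RNA, remaining doublets or expression gave these UMIs was not tested.

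Hes5 gave the most UMIs of the 10 members in progenitor-like cells of both libraries. Hes5 is a transcriptional repressor that holds back neuronal differentiation. Its level there was 247 CPM (95% interval 236 to 258) in the control library and 337 CPM (328 to 346) in the NTD library (log2 ratio 0.45, 0.38 to 0.53). In erythroid-like cells, Hes5 stood at 99.7 CPM (76.8 to 127) in the control library and 206 CPM (162 to 258) in the NTD library (log2 ratio 1.04, 0.54 to 1.55). The ratio was thus higher in cells that should lack the gene than in the progenitors. Neuroblast-like cells were at 146 and 215 CPM and neuron-like cells at 85.3 and 171 CPM, the latter below the erythroid-like level in both libraries.

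Counted per cell, Hes5 in endothelial-like and mesenchyme-like cells nearly coincided with erythroid-like cells within each library. The control library held 0.197 UMIs per erythroid-like cell, 0.215 per endothelial-like cell and 0.215 per mesenchyme-like cell. The NTD library held 0.469, 0.473 and 0.471 in the same order. Other non-neural classes were somewhat higher, with 0.238 (0.198 to 0.283) and 0.506 (0.452 to 0.565) UMIs per epithelium-like cell and 0.273 (0.141 to 0.476) and 0.542 (0.354 to 0.794) per cardiac muscle-like cell. Neuron-like cells, at 0.274 (0.246 to 0.305) and 0.516 (0.482 to 0.550), overlapped these. Neuroblast-like cells were at 0.305 and 0.530 and neural crest-like cells at 0.341 and 0.495. Progenitor-like cells stood clearly above, at 0.625 and 1.00 UMIs per cell. Per cell, Hes5 in endothelial-like and mesenchyme-like cells was not told apart from the erythroid-like level. Hes5 in neuron-like cells was not told apart from the epithelium-like level. In CPM, NTD endothelial-like and mesenchyme-like cells were at 0.70-fold (0.53 to 0.95) and 0.76-fold (0.61 to 0.98) the erythroid-like level. The source of these UMIs was not tested.

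**Figure D1:**
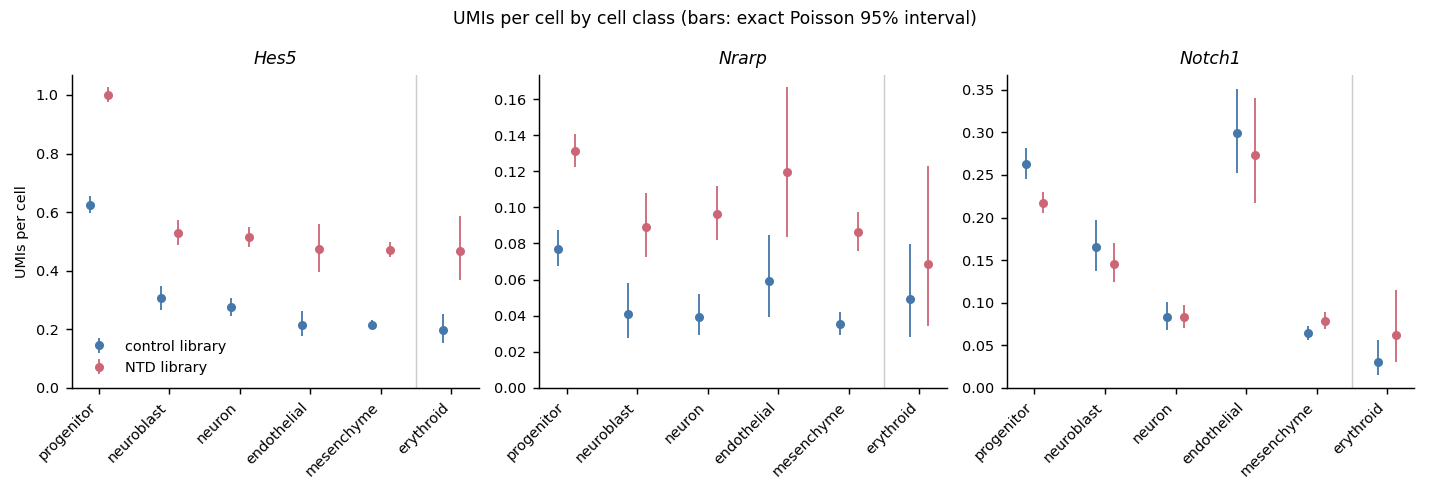
UMIs per cell of Hes5, Nrarp and Notch1 (vertical axes) in the 5 cell classes and, right of the grey line, in erythroid-like cells, for the control and NTD libraries; bars are exact Poisson 95% intervals. Hes5 is at 0.197 to 0.215 per cell in the endothelial-like, mesenchyme-like and erythroid-like cells of the control library and at 0.469 to 0.473 in those of the NTD library, and of the classes plotted the progenitor-like cells lie highest.

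Once the erythroid-like level was subtracted, the progenitor log2 ratio of Hes5 was small, and its sign depended on the way of subtracting. It was 0.08 when UMIs per cell were subtracted and the rest scaled to the class total, and -0.16 when CPM were subtracted. All ratios given by UMIs per cell are scaled in this way. Before that scaling, more Hes5 UMIs per cell remained in NTD progenitor-like cells. The subtracted levels were 0.197 (0.152 to 0.251) and 0.469 (0.369 to 0.588) UMIs per cell. The subtracted ratios have no interval, and no direction is read from them. Shares of positive cells were higher in the NTD library in both classes. With every cell thinned to 1500 UMIs, 28.3% (26.6 to 30.1) of 2668 control and 38.6% (37.3 to 39.8) of 5857 NTD progenitor-like cells held a Hes5 UMI, beside 13.7% (9.44 to 19.0) and 28.7% (21.9 to 36.4) of erythroid-like cells. Without thinning the shares were 40.3% and 56.3% in progenitor-like cells and 17.5% and 40% in erythroid-like cells. Thinning left out 403 control progenitor-like cells and 106 control erythroid-like cells.

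Nrarp, a small ankyrin-repeat protein that is induced by Notch and damps it, was also higher in NTD progenitor-like cells. In progenitor-like cells it stood at 30.4 CPM (26.7 to 34.6) in the control library and 44.2 CPM (41.2 to 47.5) in the NTD library (log2 ratio 0.54, 0.33 to 0.76). Neuron-like cells held 12.2 CPM and 32.0 CPM, and mesenchyme-like cells 12.9 and 28.8 CPM. Erythroid-like cells held 24.9 CPM (14.2 to 40.5, 16 UMIs) and 30.1 CPM (15.0 to 53.9, 11 UMIs), levels that the intervals do not separate. The progenitor-like level was 1.19-fold (0.74 to 2.17) the erythroid-like one in the control library and 1.41-fold (0.82 to 2.95) in the NTD library. Nrarp in progenitor-like cells was thus not told apart from the erythroid-like level in either library. After subtraction the progenitor ratio was 0.94 by UMIs per cell and 1.36 by CPM, but these values rest on those 16 and 11 UMIs. The control levels in neuron-like and mesenchyme-like cells lay below the erythroid-like one, at 0.48-fold (0.27 to 0.92) and 0.50-fold (0.31 to 0.93). That erythroid-like level is thus not a floor shared by all classes. The NTD levels were 1.02-fold (0.58 to 2.17, neuron-like) and 0.92-fold (0.53 to 1.94, mesenchyme-like) the erythroid-like one, and were not told apart from it. Whether these Nrarp UMIs are free RNA or expression was not tested.

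Of the clusters, 15 held 100 or more cells in both libraries, and both genes had higher NTD levels in all 15, the erythroid-like one included. For Hes5 the log2 ratios ran from 0.48 to 1.06, with the interval above 0 in all 15, and were 0.48 to 0.60 in the 4 progenitor-like clusters. For Nrarp they ran from 0.29 to 1.90, with the interval above 0 in 9 of 15. Within progenitor-like cells without a Hox UMI the ratio was 0.53 for Hes5 and 0.97 for Nrarp, and in those with one 0.42 and 0.22 (-0.15 to 0.58). Cluster 0, which stayed unnamed, held 18.0% of control and 16.3% of NTD cells, with medians of only 1131 and 1734 UMIs. Among the 15 clusters Nrarp was highest there, at 43.9 and 57.7 CPM. The cluster held 19.2% and 16.4% of all Nrarp UMIs, beside 9.03% and 11.1% of all UMIs. For Hes5 its shares were 14.0% and 13.2%.

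**Figure D2:**
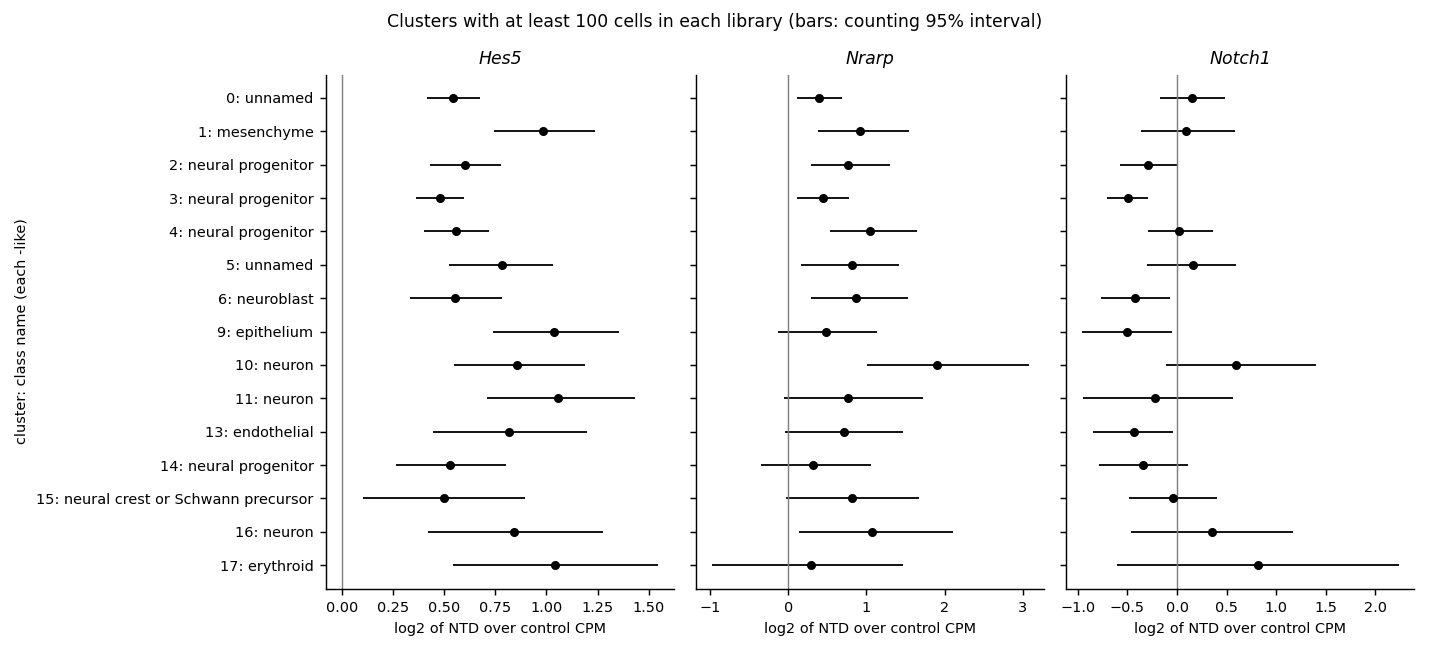
Log2 ratio of NTD over control CPM (horizontal axes) of Hes5, Nrarp and Notch1 in the 15 clusters that held 100 or more cells in both libraries; bars are counting 95% intervals and the line marks 0. Hes5 and Nrarp lie above 0 in all 15 clusters, and Notch1 in 7.

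The promoters of both genes are shown because the 2 targets were higher together across clusters. RefSeq (GRCm38.p6) held a promoter window for 9 of the 10 members; Hes1 had none. The 250 bases before the gene start were searched on both strands for TGGGAA, the core of the RBPJ site, printed in capitals (TTCCCA is the same core on the other strand). The Hes5 window lies at chr4:154960673-154960922 and the Nrarp window at chr2:25180508-25180757, both on the plus strand.
Hes5: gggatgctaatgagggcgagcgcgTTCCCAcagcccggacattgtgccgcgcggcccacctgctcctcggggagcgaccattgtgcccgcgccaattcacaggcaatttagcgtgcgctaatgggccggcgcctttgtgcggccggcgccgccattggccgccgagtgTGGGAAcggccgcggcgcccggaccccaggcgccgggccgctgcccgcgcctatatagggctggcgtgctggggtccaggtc
Nrarp: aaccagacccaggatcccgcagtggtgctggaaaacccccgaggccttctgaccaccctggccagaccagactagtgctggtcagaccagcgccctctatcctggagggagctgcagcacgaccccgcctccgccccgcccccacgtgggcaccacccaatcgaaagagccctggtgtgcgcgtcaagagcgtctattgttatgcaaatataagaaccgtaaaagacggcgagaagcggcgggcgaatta
Hes5 was the only member with the core in this window, with 2 matches that begin 226 and 82 bases before the gene start. Of all 32851 promoter windows 21.6% held at least 1 match and 2.77% at least 2. The N box CACNAG, a site that Hes proteins bind, was found in the windows of 4 members (Notch1, Notch2, Notch3 and Nrarp) and in 36.7% of all windows. These matches describe letters, not binding.

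Hes1, a repressor related to Hes5, was at like CPM in progenitor-like cells of both libraries, but its ratio depended on the scaling. Its level was 60.1 CPM (54.8 to 65.8) in the control library and 59.0 CPM (55.4 to 62.7) in the NTD library (log2 ratio -0.03, -0.19 to 0.13), which was 0.17 (0.01 to 0.33) with TMM scaling, a scaling that centres the bulk of genes at 0. With the erythroid-like level subtracted it was -0.64 by CPM and -0.38 by UMIs per cell. Endothelial-like cells were at 48.8 CPM and 69.3 CPM (0.51; -0.01 to 1.03). Neuron-like cells were at 21.4 CPM and 32.0 CPM (0.57; 0.19 to 0.97), below or near the 28.0 and 38.4 CPM of erythroid-like cells. Mesenchyme-like cells were at 50.3 and 55.1 CPM. The intervals of progenitor-like, mesenchyme-like and endothelial-like cells overlapped within each library, and of the 5 classes neuroblast-like and neuron-like cells were lowest. Epithelium-like cells were higher, at 88.5 and 74.3 CPM.

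All 3 receptors were lower in NTD progenitor-like cells, by more than the median gene on the plain CPM scale. Notch1 stood at 104 CPM (96.7 to 111) in the control library and 73.3 CPM (69.3 to 77.4) in the NTD library (log2 ratio -0.50, -0.63 to -0.37). Notch2 stood at 64.6 and 48.4 CPM (-0.42; -0.58 to -0.25), and Notch3 at 171 and 141 CPM (-0.28; -0.38 to -0.18). The median of all 16502 measured genes in this class was -0.18. With TMM scaling the ratios were -0.31, -0.22 and -0.08 in the same order. Set against genes of like genomic span, they were -0.27, -0.11 and -0.07. With the erythroid-like level subtracted, Notch1 was at -0.94 by CPM and -0.81 by UMIs per cell, and Notch3 at -0.49 and -0.42. Notch2, which changed sign, is given below.

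Notch1 was the receptor with the lowest ratio, and the value differed between progenitor subsets. Cells without a Hox UMI gave -0.20 (-0.42 to 0.04, 179 and 1090 UMIs), and cells with one gave -0.58 (-0.83 to -0.35, 629 and 184 UMIs). The medians of all measured genes in these subsets were -0.16 and -0.13. With TMM scaling Notch1 was at -0.003 and -0.47, and against genes of like span at 0.007 and -0.40. In cells without a Hox UMI, Notch1 thus did not differ from the median gene beyond counting error. The difference between these subsets was not tested. Among the 4 progenitor-like clusters Notch1 was lower in 3 and at 0.02 in the other. Notch2 was lower in all 4, but the erythroid-like level of Notch2 was itself 53.0 CPM (34 UMIs) in the control library and 27.4 CPM (10 UMIs) in the NTD library. With those levels subtracted, the Notch2 ratio in progenitors turned to 0.86 by CPM and 0.23 by UMIs per cell. With subtraction, the sign of the Notch2 difference thus depended on these 34 and 10 UMIs. In the control library Notch2 was at 15.6 CPM in neuroblast-like, 18.7 in neuron-like and 28.6 in endothelial-like cells. These were 0.30-fold (0.17 to 0.51), 0.35-fold (0.23 to 0.55) and 0.54-fold (0.33 to 0.89) the erythroid-like level. In the NTD library these classes were not told apart from it. The control erythroid-like level is thus not a floor shared by all classes, and no direction is read from the subtracted ratios.

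**Figure D3:**
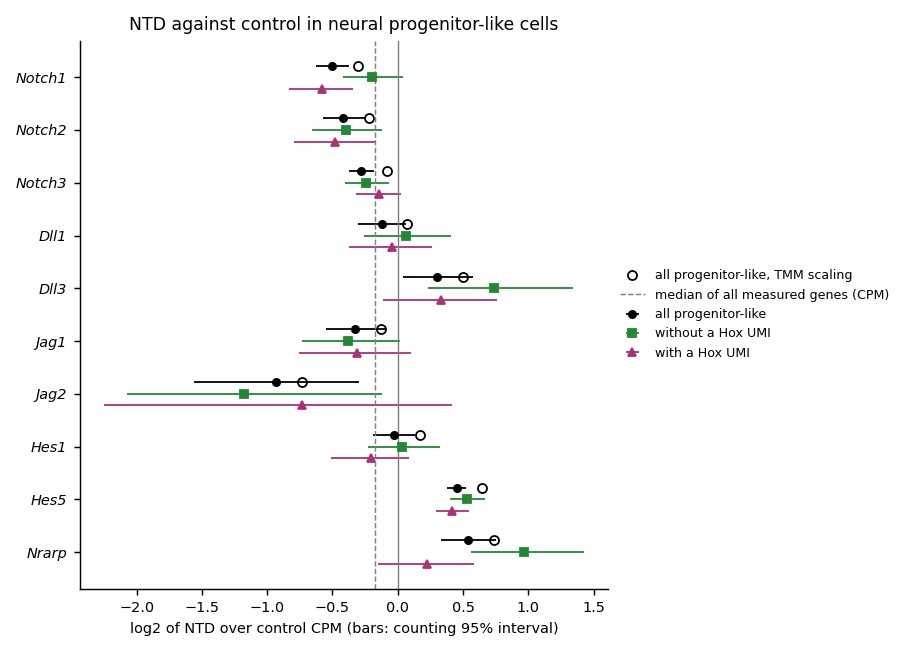
Log2 ratio of NTD over control CPM (horizontal axis) of the 10 genes in all neural progenitor-like cells, in those without and in those with a Hox UMI; bars are counting 95% intervals, open circles TMM scaling, and the dashed line the median of all measured genes (-0.18). Over all progenitor-like cells the 3 receptors lie at -0.50 to -0.28, and Hes5 and Nrarp at 0.45 and 0.54.

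Among the 5 classes, each receptor had its own order of levels. Notch1, the receptor common to neural progenitors and vessels, was highest there in endothelial-like cells (114 CPM, 96.2 to 134, in the control library; 84.0 CPM, 66.6 to 105, in the NTD library). Progenitor-like cells came next, with intervals that overlapped the endothelial ones in both libraries. Neuroblast-like cells followed at 79.3 and 59.2 CPM, and neuron-like (25.9 and 27.6 CPM) and mesenchyme-like cells (23.4 and 26.3 CPM) were lowest, near the 15.6 and 27.4 CPM of erythroid-like cells. Of the 5 classes Notch2 was highest in mesenchyme-like cells, at 104 CPM (97.2 to 110) and 77.2 CPM (71.4 to 83.3). Notch3, known from the mural cells of vessels, was highest of the 5 in progenitor-like cells and next in mesenchyme-like cells, at 119 CPM (112 to 126) and 89.2 CPM (83.0 to 95.7). Outside the 5 classes, neural crest or Schwann precursor-like cells held 114 and 111 CPM of Notch1, 111 and 56.3 CPM of Notch2, and 166 and 93.8 CPM of Notch3. Skeletal muscle-like control cells held 134 CPM and NTD epithelium-like cells 96.2 CPM of Notch3. In endothelial-like, neuron-like and neuroblast-like cells of the NTD library, Notch3 was at 25.5 to 34.7 CPM, below the 46.6 CPM of erythroid-like cells.

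Mesenchyme-like cells held less Notch2 and Notch3 in the NTD library, with log2 ratios of -0.42 (-0.57 to -0.28) and -0.41 (-0.55 to -0.28). Cluster 1, led by the craniofacial genes Alx1 and Alx4, held 97.0% of the NTD cells of this class and 21.4% of the control ones. Within that cluster the ratios were -0.54 (-0.76 to -0.31) for Notch2 and -0.29 (-0.51 to -0.06) for Notch3. In the whole class they were -0.15 and -0.18 against genes of like span, and with the erythroid-like CPM subtracted -0.02 and -0.91. In neuroblast-like cells Notch3 was at 55.2 and 31.8 CPM (-0.80; -1.25 to -0.35), which was -0.03 (-0.37 to 0.33) when likely doublets were kept.

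**Figure D4:**
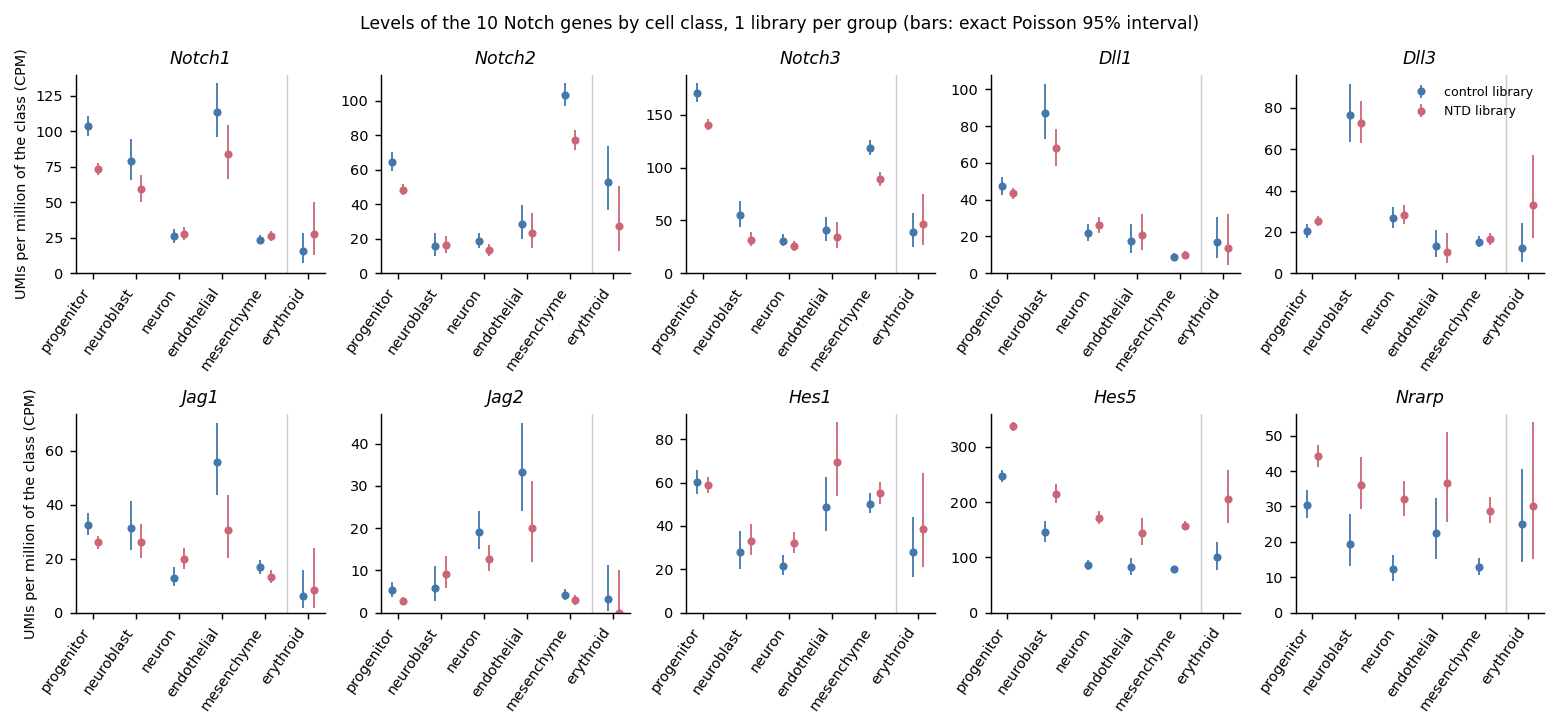
Level in CPM (vertical axes, each from 0) of the 10 genes in the 5 cell classes and, right of the grey line, in erythroid-like cells, for the control and NTD libraries; bars are exact Poisson 95% intervals. Of the classes plotted, Dll1 and Dll3 peak in neuroblast-like cells, Jag1 and Jag2 in endothelial-like cells, Notch2 in mesenchyme-like cells, and Hes5 in progenitor-like cells. In the NTD library the endothelial-like intervals of Jag1 and Jag2 overlap those of other classes.

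Of the 5 classes, neuroblast-like cells held the highest levels of Dll1 and Dll3 in both libraries. Dll1 is a ligand that activates Notch on the neighbouring cell, and Dll3 is a relative that acts mainly inside its own cell to dampen the pathway. Dll1 stood at 87.1 CPM (73.0 to 103) in control and 67.9 CPM (58.5 to 78.3) in NTD neuroblast-like cells, against 47.3 CPM (42.6 to 52.3) and 43.4 CPM (40.3 to 46.6) in progenitor-like cells. In neuron-like and endothelial-like cells it was at 17.8 to 26.1 CPM and in mesenchyme-like cells at 8.73 and 9.72 CPM. Erythroid-like cells were at 17.1 CPM (8.56 to 30.7) and 13.7 CPM (4.45 to 32.0), intervals that overlap these. The neuroblast ratio of Dll1 was -0.36 (-0.69 to -0.03) and the progenitor ratio -0.12 (-0.31 to 0.06). The first became 0.19 (-0.10 to 0.47) when clusters were cut more finely, and the second 0.07 with TMM scaling.

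Dll3 was at 76.7 CPM (63.5 to 91.8) in control and 72.5 CPM (62.9 to 83.3) in NTD neuroblast-like cells, a log2 ratio of -0.08 (-0.42 to 0.26). The other 4 classes lay between 10.5 and 28.0 CPM. In progenitor-like cells Dll3 was at 20.3 CPM (17.2 to 23.7) and 25.1 CPM (22.8 to 27.6), a ratio of 0.30 (0.04 to 0.58), beside 12.5 CPM (8 UMIs) and 32.9 CPM (12 UMIs) in erythroid-like cells. The NTD progenitor level thus lay below the erythroid-like one, and no progenitor expression of Dll3 is read from it.

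Jag1, the ligand known from vessels and from bands of the neural tube, was highest, and differed most, in endothelial-like cells among the 5 classes. It stood at 55.7 CPM (43.6 to 70.2, 72 UMIs) in the control library and 30.5 CPM (20.4 to 43.7, 29 UMIs) in the NTD library (log2 ratio -0.86, -1.55 to -0.23). Erythroid-like cells held 6.23 and 8.22 CPM, from 4 and 3 UMIs. Progenitor-like cells were at 32.6 CPM (28.7 to 36.9) and 26.0 CPM (23.7 to 28.5), a ratio of -0.33 (-0.55 to -0.10) that was -0.13 with TMM scaling. Neuroblast-like cells lay within the progenitor intervals, at 31.2 and 26.0 CPM. In the NTD library the endothelial-like interval spanned the progenitor-like one, so their order there is not beyond counting error. Outside the 5 classes, epithelium-like cells held 40.0 and 32.2 CPM of Jag1. Neuron-like cells, taken whole, went the other way, with 12.97 CPM (9.69 to 17.0) in control and 19.7 CPM (16.1 to 23.9) in NTD cells, a ratio of 0.60 (0.11 to 1.12). Within the 3 neuron-like clusters of 100 or more cells in both libraries it ran from -0.05 to 0.74, and none of the 3 intervals lay above 0. The remaining neuron-like cluster held 23.9% of the control and 4.55% of the NTD neuron-like cells.

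Jag2 was sparse. Endothelial-like cells held 33.3 CPM (24.1 to 44.8, 43 UMIs) in the control library and 19.95 CPM (12.01 to 31.2, 19 UMIs) in the NTD library (log2 ratio -0.72, -1.60 to 0.07). Neuron-like cells held 19.2 CPM (15.2 to 24.0) and 12.6 CPM (9.78 to 16.1), a ratio of -0.60 (-1.10 to -0.11). Among the other classes, epithelium-like cells were above both, at 45.9 and 28.6 CPM. In progenitor-like cells the 41 and 48 UMIs gave 5.27 CPM (3.78 to 7.14) and 2.76 CPM (2.04 to 3.66), with 2 and 0 UMIs in erythroid-like cells, the latter with an upper limit of 10.1 CPM.

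As a list, the 10 genes did not stand apart from all genes in progenitor-like cells. All 10 passed the minimum of 20 UMIs over both libraries in each of the 5 classes. Their median log2 ratio was -0.20, beside -0.18 over all measured genes. A gene was counted as higher or lower from a log2 ratio of 0.32 in size. By this rule 2 of 10 (Hes5 and Nrarp) were higher, where 12.2% of all genes were, and 4 of 10 (Notch1, Notch2, Jag1 and Jag2) were lower, where 32.8% were. TMM scaling, which shifts the median of all genes to 0.02, gave 3 higher (22.5% of all genes; Dll3 was the third) and 1 lower (17.2%; Jag2).

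In the other classes the list's median lay above that of all genes, except in endothelial-like cells. The same held in erythroid-like cells, where the median over the 7 members measured was 0.46 beside -0.30 over all genes. In neuroblast-like cells 3 were higher (17.2% of all genes) and 3 lower (33.5%), with a median of -0.02 beside -0.14; with TMM scaling 4 (26.9%) and 1 (21%). In neuron-like cells 4 were higher (19.1%) and 2 lower (34.8%), with a median of 0.17 beside -0.16; with TMM scaling 5 (27.4%) and 2 (21.7%). In endothelial-like cells 3 were higher (18.7%) and 3 lower (32.9%), with a median of -0.27 beside -0.12; with TMM scaling 4 (24.3%) and 3 (24.7%). In mesenchyme-like cells 2 were higher (15%) and 4 lower (34.9%), with a median of 0.13 beside -0.17; with TMM scaling 4 (23.3%) and 0 (21.6%). Hes5 and Nrarp were among the higher ones in all 5 classes, beside the erythroid-like values given above.

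Of the other pathway genes, a list of 54, 52 were measured in progenitor-like cells, with 7 higher and 19 lower, beside 12.2% and 32.8% of all genes, and a median of -0.23 beside -0.18. With TMM scaling 11 were higher and 8 lower, beside 22.5% and 17.2%. Rbpj, the DNA-binding partner of cut Notch, stood at 126 and 123 CPM (-0.03; -0.14 to 0.08). The 3 highest ratios at 20 CPM or more were those of Dlk1, a ligand-like membrane protein (0.47), Id4, an inhibitor of bHLH factors (0.45), and the corepressor Ctbp1 (0.27). The 3 lowest were Maml3, a coactivator that binds cut Notch (794 and 489 CPM, -0.70), Dtx3, a ubiquitin ligase of the Deltex family (-0.63), and Pofut1, the enzyme that adds fucose to Notch (-0.58). Against genes of like span, Maml3 was at -0.41.

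In the other classes Id4 had the highest ratio throughout, from 0.99 in neuron-like to 1.36 in mesenchyme-like cells, beside 0.99 (-0.09 to 2.10) in erythroid-like cells. Psenen, a subunit of the secretase that cuts Notch, was among the 3 highest in all 4 (0.23 to 0.43), beside 0.38 in erythroid-like cells. Dtx4 (0.48, neuroblast-like), Tle1 (0.45, neuron-like, and 0.48, mesenchyme-like) and Dlk1 (0.86, endothelial-like) completed the highest. The coactivator gene Maml2 was among the 3 lowest in neuroblast-like (-0.82), neuron-like (-1.16) and mesenchyme-like cells (-0.74), beside -0.89 in erythroid-like cells. The others among the lowest were Dtx3 (-0.79) and Numb (-0.70) in neuroblast-like cells, Maml3 (-0.72) and Ncstn (-0.65) in neuron-like cells, Maml1 (51.1 and 25.2 CPM), Eogt (-0.62) and Adam17 (-0.53) in endothelial-like cells, and Dlk1 (-1.18) and Ncstn (-0.63) in mesenchyme-like cells. Of the pathway list 5 were higher and 20 lower of 44 measured in neuroblast-like cells (17.2% and 33.5% of all genes). In neuron-like cells 6 and 17 of 47 were (19.1% and 34.8%), in endothelial-like cells 4 and 15 of 41 (18.7% and 32.9%), and in mesenchyme-like cells 9 and 21 of 51 (15% and 34.9%). With TMM scaling the counts were 7 and 13, 10 and 7, 6 and 6, and 11 and 11 in the same order. The shares of all genes with that scaling were 26.9% and 21%, 27.4% and 21.7%, 24.3% and 24.7%, and 23.3% and 21.6%.

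The proneural factors push cells towards neurons and switch on Dll1. Of 9 such factors 4 were higher and 3 lower in progenitor-like cells, beside 12.2% and 32.8% of all genes, with a median of -0.09. The median was 0.87 over the 7 measured in cells without a Hox UMI and 0.40 over the 9 in cells with one. The sign of the pooled value is that of neither subset. All measured genes had medians of -0.16 and -0.13 in these subsets. Non-neural classes had positive proneural medians too. These were 0.81 over 7 factors in mesenchyme-like, 1.10 over 2 in endothelial-like and 0.33 over 2 in erythroid-like cells. Neuroblast-like and neuron-like cells were at -0.04 and 0.39, over 7 factors each. Over all progenitor-like cells, with and without a Hox UMI, Neurog2 was at 28.4 and 39.9 CPM (0.49; 0.27 to 0.72). Neurog2 was at 12.99 and 24.0 CPM in mesenchyme-like cells and at 29.6 and 10.96 CPM in erythroid-like cells (19 and 4 UMIs). In neuroblast-like cells Neurog2 did not differ beyond counting error (87.7 and 85.2 CPM), Neurod1 was at 29.9 and 26.0 CPM, and Neurod4 was lower, at 44.8 and 12.99 CPM (-1.78; -2.41 to -1.19). Neurog2, Neurod1 and Neurod4 are also among the markers that named this class. In neuron-like cells the log2 ratio was 0.83 for Neurog2 and -0.33 for Neurod1.

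Within progenitor-like cells, Dll1-positive cells were compared with Dll1-negative ones after thinning to 1500 UMIs. In the control library 39.7% of 174 Dll1-positive and 27.5% of 2494 Dll1-negative cells held a Hes5 UMI, a difference of 12.1 points (4.91 to 19.7). In the NTD library the shares were 34.1% of 334 and 38.8% of 5523 cells, a difference of -4.71 points (-9.75 to 0.69). Neither value was stable. The control difference was 4.45 and 4.65 points with coarser and finer clusters, and the NTD difference was 2.75 points with all UMIs and 5.68 points with a stricter cell filter. Hes5 UMIs like those in erythroid-like cells, whose source was not tested, may be part of all these shares.

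Among other partners, Hes6, Elavl3, Mfng and Neurog2 were found more often in Dll1-positive cells of both libraries. They were picked after the values of 21 gene pairs in 4 classes and both libraries were seen. Hes6, a relative of Hes1 that promotes neuronal differentiation, was found in 32.2% of Dll1-positive and 11.9% of Dll1-negative control cells (20.2 points, 13.6 to 27.6), and in 18.9% and 13.4% of NTD cells (5.46 points, 1.52 to 10.1). Elavl3, an RNA-binding protein of young neurons, differed by 15.3 points (8.38 to 22.8) and 5.13 points (0.91 to 9.96). Mfng, an enzyme that adds sugars to Notch, differed by 7.97 points (3.96 to 13.6) and 2.41 points (0.09 to 5.69), and Neurog2 by 3.45 points (0.43 to 8.26) and 4.48 points (1.66 to 8.20). For Hes1 the intervals of both libraries spanned 0. Whether the libraries differ in these values was not tested.

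**Figure D5:**
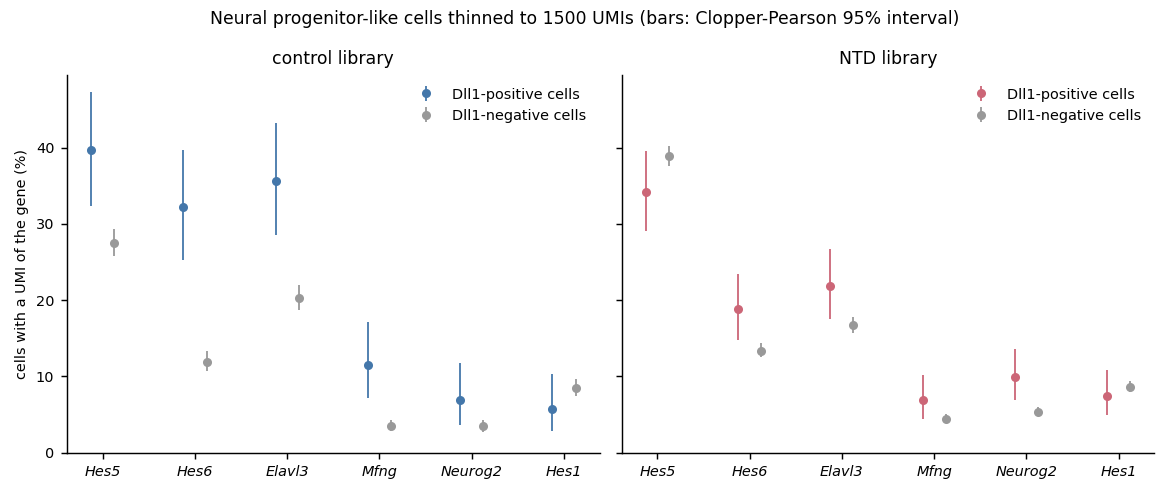
Share of neural progenitor-like cells with a UMI of each gene (vertical axis, %) among Dll1-positive and Dll1-negative cells, after thinning to 1500 UMIs; left the control library, right the NTD library, bars are Clopper-Pearson 95% intervals. Hes6 was found in 32.2% and 11.9% of control cells and in 18.9% and 13.4% of NTD cells.

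Across the 15 clusters and both libraries (30 points, which share libraries and depth), the levels of some members ran together. Pearson's r of log2(CPM + 1) was 0.84 for Notch2 and Notch3, 0.79 for Hes5 and Nrarp, 0.73 for Notch1 and Jag1, and 0.61 for Dll1 and Dll3. The genes most like Hes5 among 11885 compared were Sox21 (0.92), Sox2 (0.91) and Pantr1 (0.91), and those most like Nrarp were Nes, Vim and Ckb (0.84 to 0.85). Dll1 was most like Celsr2 (0.88), Pou3f2 (0.83) and Gm14342 (0.82), and Dll3 most like Igfbpl1 (0.81), Fam110a (0.78) and Gadd45g (0.77). Notch1 was most like Gm42836 (0.83), Myo10 (0.80) and Spata13 (0.78), and Jag1 most like Myo10 (0.77), Prag1 (0.76) and Notch1 (0.73). Notch2 was most like Kif20b, Ndc1 and Rad54b (0.86 each), Notch3 most like Dzip1l, Hnrnpr and Ska2 (0.90 each), Jag2 most like Lurap1l (0.82), Ablim1 (0.82) and Jup (0.77), and Hes1 most like Ajuba (0.89), Zfp36l1 (0.83) and Etaa1 (0.82).

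The members lie on 7 chromosomes in GENCODE M21 (GRCm38). On the plus strand are Notch2 (chr3:98013527-98150361), Hes1 (chr16:30064384-30067796), Hes5 (chr4:154960923-154962371) and Nrarp (chr2:25180758-25183339). On the minus strand are Notch1 (chr2:26457903-26516663), Notch3 (chr17:32120820-32166852), Dll1 (chr17:15367354-15376872), Dll3 (chr7:28293553-28302238), Jag1 (chr2:137081456-137116644) and Jag2 (chr12:112907819-112929776). Antisense genes overlap Notch1, Notch3, Dll1, Hes5 and Nrarp, and predicted genes or microRNA genes on the same strand overlap Notch1, Notch2 and Jag2. The sources used here do not state how the counting treated strand, so reads of these pairs may not have been told apart.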

How the data were processed

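The authors deposited unnormalized UMI counts of genes by barcodes. Per the file headers the software was Cell Ranger 7.0.1. STAR and mm10 are named in the submitters' processing notes. The sources used here do not state the intron setting or the annotation. There were 18572 control barcodes (50741121 UMIs) and 19056 NTD barcodes (55524355 UMIs), and 105 barcode sequences occurred in both.

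A filter of at least 500 genes and 1000 UMIs and at most 10% mitochondrial UMIs removed no barcode. Scrublet's automatic threshold marked 0 barcodes in either library, so the highest scores were removed instead, at 0.8% per 1000 barcodes (2759 control, 14.9%, and 2905 NTD, 15.2%). This share was set after that was seen. The libraries were clustered together in scanpy 1.11.5 (2000 variable genes without Notch genes, 30 principal components, 15 neighbours, Leiden resolution 1.0, leidenalg 0.10.2), which gave 23 clusters. A marker counted when in at least 2% of a cluster's cells at 1.25-fold the other cells. A name needed 3 markers, a lead of 2, and a top 10 in which no rival class had more markers. The 2% was chosen over 10% after the clusters were seen, because 10% gave no neuroblast cluster; Dll1, Dll3, Hes5, Hes6 and Mfng were in view then. Of the clusters 4 stayed unnamed, one of pigment genes by a rule added later.

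UMIs were summed per class and library and scaled to CPM of the class total. Ratios had 0.5 counts added. Poisson, conditional binomial, Clopper-Pearson and Newcombe 95% intervals cover counting error only. With 1 library per group no test was made and no p-value computed; PCR and sampling of embryos are not covered. Cells were thinned to 1500 UMIs for shares, which left out 3561 control and 0 NTD cells. The ratio code was tested on simulated data. Of 32285 genes 32158 (99.6%) matched GENCODE M21.

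Named were the 10 members and, per class, the 3 highest and 3 lowest ratios of the pathway and proneural lists at 20 CPM or more, and 3 most alike genes per member; 1 gene that this rule names is not reported here. Members and lists were chosen with earlier results of these data known. Alternatives were TMM scaling, genes of like span in 20 bins, minimum UMIs, cell filter, doublets, resolution, clustering features, Hox subsets and thinning. Subtraction of erythroid-like levels and the single mesenchyme-like cluster were added after seeing the data.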

Additional observations from a re-analysis of the deposited data

Results flagged for a closer look

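Jag1 was higher in the NTD library in neuron-like cells (log2 ratio 0.60) and lower in endothelial-like cells (-0.86), a gap of 1.46 on the log2 scale. It was picked out because its counting intervals lay on opposite sides of 0 in these 2 classes with both scalings. Within the 3 neuron-like clusters of 100 or more cells in both libraries the ratio ran from -0.05 to 0.74, with 0 intervals above 0, and the remaining cluster held 23.9% of the control and 4.55% of the NTD neuron-like cells. The difference between the classes was not tested, since each group has 1 library.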

How the results depend on the processing

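No paired analysis was possible because each group has 1 library. Of 109 alternatives for medians, counts and shares 95 stayed within the spread and 14 moved. The progenitor median was -0.0056 with TMM scaling, and the count of lower members there was 1 with TMM scaling and 1 against genes of like span. The count of higher members was 1 with erythroid-like UMIs per cell subtracted, where the median was -0.55 in neuron-like and -0.76 in mesenchyme-like cells, and the mesenchyme-like median was -0.41 with erythroid-like CPM subtracted. The Hes5 difference by Dll1 was, in the control library, 4.45 points (resolution 0.5) and 4.65 (resolution 2.0), and in the NTD library 2.75 with all UMIs, 3.20 at 2500 UMIs, 5.68 with the stricter filter, 2.70 at resolution 0.5 and 2.30 in cells with a Hox UMI.

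Of 591 alternatives for single genes 55 changed sign, 18 of them from a main ratio of 0.32 or more in size, which are given here, and 37 from a smaller one. With erythroid-like CPM subtracted, progenitor Notch2 was 0.86, Jag2 0.36 and Hes5 -0.16, neuroblast Hes5 -2.28 and mesenchyme Jag2 1.64. With UMIs per cell subtracted, progenitor Notch2 was 0.23, mesenchyme Jag2 0.69, neuron Hes1 -0.55, and Hes5 -1.06 in neuroblast-like, -0.63 in neuron-like, -2.58 in endothelial-like and -3.43 in mesenchyme-like cells. These values rest on 64 and 75 Hes5 UMIs and fewer of other members in erythroid-like cells, and members below that level gave no value. Mesenchyme Jag1 was 0.19 with the stricter filter and 0.71 in cluster 1, neuroblast Jag2 -0.061 at resolution 0.5 and -0.011 with Notch genes among the clustering features, neuron Notch2 0.18 at resolution 0.5, and neuroblast Dll1 0.19 at resolution 2.0. The cause of each was not tested. Jag2 had 41 and 48 UMIs in progenitor-like and 43 and 19 in endothelial-like cells, which limits its ratios.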
